A study of Rattus norvegicus with 47 samples.

Results

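The genes described are steroid, retinoid and lipid nuclear receptors, measured by RNA sequencing in striatum and cerebellum of rats that inhaled PCB52 (2,2′,5,5′-tetrachlorobiphenyl, a polychlorinated biphenyl) or were sham-exposed. They were taken from a list of 28 symbols, matched to the gene identifiers of both count tables, and counted as detected in a region when the mean over its libraries was at least 1 CPM (counts scaled to a fixed library total). Of the 28, 27 had a row among 15319 genes. Nr6a1 had none and was not analysed here. At 1 CPM or more, 24 were detected in either region, 22 in striatum and 23 in cerebellum.

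All animals were Sprague-Dawley rats, male and female, assigned to an exposure at 39 days of age in males and 42 days in females. PCB52 rats breathed air drawn over coated beads in a nose-only system, 4 h a day over 28 days. The sham samples carry the same schedule, and beyond it their exposure is described by the word sham alone. Among striatal libraries PCB52 females and PCB52 males had 6 each, sham females had 6 and sham males 4. The cerebellar libraries were 6 of PCB52 females and 5 of PCB52 males, then 6 from sham females and 5 from sham males. Both regions were available from 21 of the 24 animals, each library came from a tissue punch of 1 animal, and the age at collection is not given in the sources used here.

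Nuclear receptors are transcription factors whose activity is set by small lipophilic molecules: steroids, retinoic acid, fatty acids and oxysterols. Steroid receptors wait in complexes with heat shock protein chaperones and bind DNA as pairs of the same receptor, whereas retinoic acid receptors, PPARs, LXRs and the vitamin D receptor pair with a retinoid X receptor (RXR). In mouse striatum, retinoic acid signalling through RARβ and RXRγ is known to support the differentiation of projection neurons and dopamine receptor signalling. Orphan members have no agreed natural ligand, and several of them, such as Nr2e1 and the COUP transcription factors Nr2f1 and Nr2f2, pattern the developing brain.

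Total counts were 5684508 to 8914523 per library in striatum and 6524400 to 15865054 in cerebellum. The labelled regions carried their own markers: 12 striatal projection neuron genes summed to 6759 to 15104 CPM in striatal and 487 to 665 CPM in cerebellar libraries, and 10 granule cell genes to 146 to 610 CPM in striatal and 4699.7 to 8015 CPM in cerebellar libraries. Some libraries stood apart. The mean log2(CPM + 1) of 74 ribosomal protein genes was 0.85 to 1.39 above the cerebellar median in 4 cerebellar libraries, all of PCB52 animals (females 16 and 20, males 15 and 23), against -0.68 to 0.40 in the other 18, and was 0.81 above the striatal median in striatum of sham female 12. Transcripts of both sexes were present in 5 libraries (cerebellum of sham females 8 and 10 and sham males 9 and 11, striatum of sham male 3). Markers of another tissue lay more than 2 above the region's median, as a mean log2(CPM + 1), in 5 libraries: choroid plexus in cerebellum of sham male 1, choroid plexus and meningeal fibroblasts in striatum of PCB52 female 20, cortical neurons in striatum of PCB52 female 14 and PCB52 male 19, and olfactory bulb neurons in striatum of sham female 12. Below that bound, PCB52 female 24 was 1.57 above the median in cortical neuron markers in striatum and 1.72 above it in meningeal markers in cerebellum. In bulk tissue, fewer cells of a type and less RNA per cell cannot be told apart.

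Of the 27 receptors, 21 were detected in both regions, Nr2e1 in striatum alone, and Esrrb and Pparg in cerebellum alone. The oestrogen receptors Esr1 and Esr2 and the vitamin D receptor Vdr averaged under 1 CPM in both. Single libraries did reach 1 CPM, for Esr2 4 in striatum and 10 in cerebellum, and for Esr1 2 and 4. For Vdr it was 0 in either region. Cerebellar Pparg, counted as detected by its mean, reached 1 CPM in 13 of 22 libraries, so Esr2 and Pparg lie close to the bound there. Esr1 averaged 0.440 ± 0.342 CPM in striatum and 0.641 ± 0.472 CPM in cerebellum (SD, n = 22 libraries each), Esr2 0.601 ± 0.427 and 0.938 ± 0.350 CPM, and Vdr 0.272 ± 0.197 and 0.146 ± 0.167 CPM. No library held more than 20 counts of any of the 3, and they did not pass edgeR's filter on low counts, so no test was made of them. Esr2 was lower in striatum in 18 of 21 animals and Esr1 in 16, while Vdr was higher in striatum in 16. Esr1, named here after its values were seen, had 0.322 to 1.02 CPM in striatum of PCB52 females, against 0 to 0.155 CPM in sham females, that is 2 to 7 counts a library against 0 or 1. In striatum of males it had 0.156 to 0.957 CPM in PCB52 rats and 0 to 0.732 CPM in sham rats, with overlap. The share of all genes that separate the 2 female groups was not counted, so these few counts do not single out Esr1. In that comparison of females, 13.4% of all genes tested had an unadjusted p under 0.05 by edgeR. Over all genes in the tables, 79.4% reached 1 CPM in striatum and 76.3% in cerebellum.

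**Figure D1:**
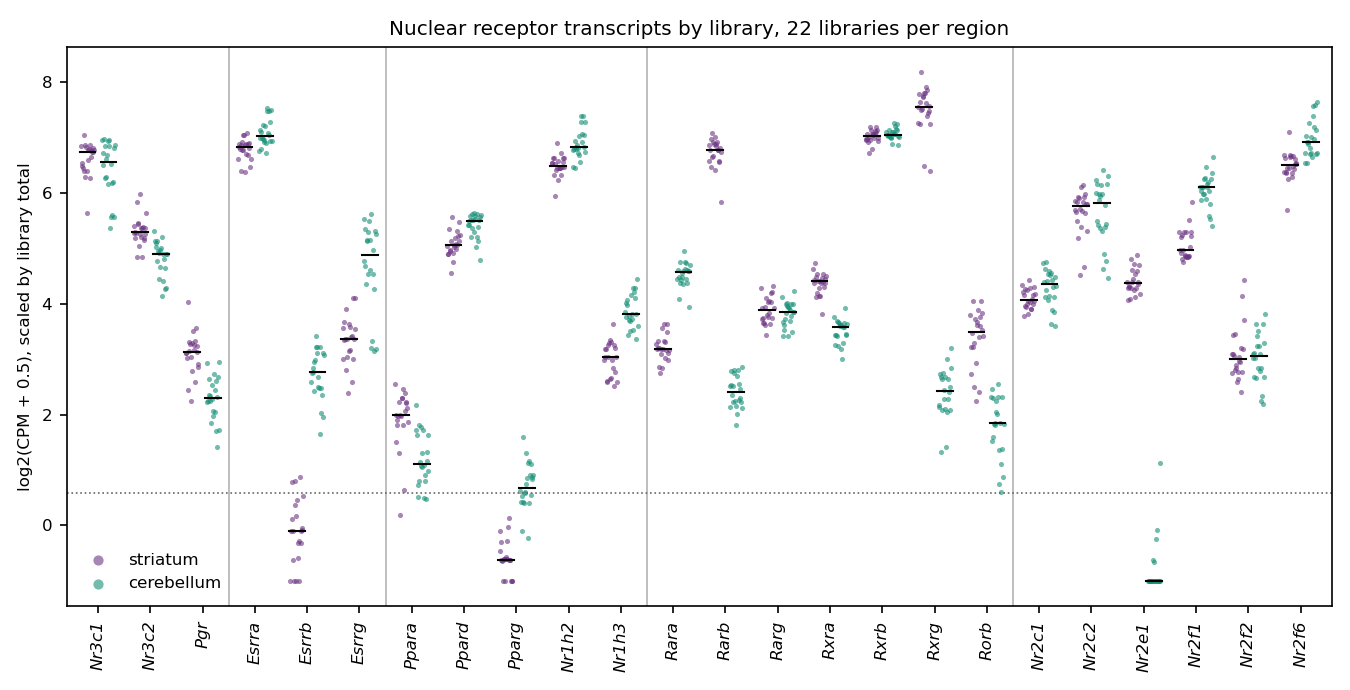
Level of the 24 detected receptors in each library, as log2(CPM + 0.5) scaled by library total, with striatum (purple) left of cerebellum (green); points are libraries (22 per region), black bars are medians, vertical lines part the receptor classes and the dotted line marks 1 CPM. The regions do not overlap for Rarb, Rxrg, Nr2e1, Esrrb and Rara, and the share of all genes without overlap was not counted. Levels are not scaled by transcript length, so they compare regions for a gene and not genes with each other.

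Striatum had more Rarb, Rxrg and Nr2e1 transcript, without overlap between the regions, and less Rara and Esrrb. How many of all genes lacked overlap between the regions was not counted, so the lack of overlap is not read as particular to these receptors. In edgeR's quasi-likelihood test of the mean striatal against the mean cerebellar level, 19 of the 24 receptors tested (79.2%) passed an adjusted p of 0.05, 8 higher and 11 lower in striatum, beside 80.9% of all 12446 genes tested (38.5% higher, 42.4% lower). The share called was thus close to that of all genes. Nr2e1, Esrrb and Pparg were tested only because 1 region was high enough to pass the filter, which makes a difference likely, so their values are given without a test. Of the 21 receptors at 1 CPM or more in both regions, 16 (76.2%) were called, 7 higher and 9 lower in striatum, beside 79.8% of the genes at that level in both. Over those receptors the median absolute log2 difference was 0.52, and over those genes 0.50.

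Among the retinoic acid receptors, Rarb (gene 24706), which encodes RARβ, had 56.6 to 135 CPM in striatal libraries with a median of 109.7, against 3.002 to 6.74 CPM in cerebellar libraries with a median of 4.80. No striatal library came near the cerebellar range, and the striatal value was the higher in 21 of 21 animals with both regions. The fitted difference was 4.45 on the log2 scale (SE 0.10, adjusted p = 2.64e-33). Rara (gene 24705), which encodes RARα, lay the other way: 6.20 to 12.0 CPM in striatum (median 8.60) and 14.9 to 30.7 CPM in cerebellum (median 23.3), again with no overlap, and lower in striatum in all 21 animals (log2 difference -1.37, SE 0.07, adjusted p = 2.38e-20). Rarg, for RARγ, had 10.3 to 19.5 CPM in striatum and 10.2 to 18.2 CPM in cerebellum, and did not pass the test (log2 difference 0.09, SE 0.06, adjusted p = 0.205).

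The window printed here is that around the Rarb start (RefSeq, GRCr8, chr15:11336142-11336441, plus strand, 250 bases before the start and 50 from it). Rarb was among the receptors with the widest regional differences, which is why its window is shown. It holds a paired motif that was in no window of another listed receptor, where windows were found for 25 of the 28 listed. Capitals mark the core hexamers of nuclear receptor binding motifs that were searched, on either strand (the consensus AGGTCA, its common variant GGGTCA, and AGTTCA with its relative GGTTCA).
Rarb: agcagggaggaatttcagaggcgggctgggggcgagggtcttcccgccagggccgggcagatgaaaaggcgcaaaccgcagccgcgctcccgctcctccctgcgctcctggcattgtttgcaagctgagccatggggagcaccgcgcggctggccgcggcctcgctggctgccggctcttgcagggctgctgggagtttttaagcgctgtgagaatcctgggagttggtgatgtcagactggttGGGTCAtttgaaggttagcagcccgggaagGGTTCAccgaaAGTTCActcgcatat
Near its end lies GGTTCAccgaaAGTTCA, at bases 25 to 41 after the start (chr15:11336416-11336432, plus strand). In mouse and human this direct repeat with 5 bases between the hexamers is known as the retinoic acid response element of the Rarb promoter, through which retinoic acid raises its own receptor. The pattern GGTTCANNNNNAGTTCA, searched on both strands, was in 3 of 33469 promoter windows (0.00896%). Its letters were read from the Rarb window, so that window was bound to hold it. A direct repeat of any pair of the 4 hexamers with the same spacing was in 128 windows (0.382%), and among the genes listed here only in those of Rarb and Cyp26a1, a retinoic acid-degrading enzyme. A match of letters is a description and was not tested as a site of binding.

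The retinoid X receptors, obligate partners of RARs, PPARs and LXRs, differed by paralog. Rxrg (gene 83574) had 83.7 to 289 CPM in striatum (median 188) and 2.01 to 8.74 CPM in cerebellum (median 4.90), with no overlap and the striatal value higher in 21 of 21 animals (log2 difference 5.26, SE 0.15, adjusted p = 2.75e-29). Rxra had 13.6 to 26.2 CPM in striatum and 7.54 to 14.7 CPM in cerebellum, which overlap in their ranges although striatum was higher in all 21 animals (log2 difference 0.90, SE 0.07, adjusted p = 9.9e-16). Rxrb averaged 129.7 ± 10.04 CPM in striatum and 134 ± 9.01 CPM in cerebellum (SD, n = 22 each) and did not pass the test (log2 difference -0.05, SE 0.04, adjusted p = 0.305). Its coefficient of variation over libraries, 7.74% in striatum and 6.71% in cerebellum, was the lowest of the receptors in both regions. Rorb, a retinoid-related orphan receptor that marks layer-4 neurons in mouse cortex, had 4.26 to 16.2 CPM in striatum and 1.02 to 5.35 CPM in cerebellum (log2 difference 1.76, SE 0.17, adjusted p = 1.03e-12). Striatum therefore held more Rarb, Rxra, Rxrg and Rorb transcript, and cerebellum more Rara.

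**Figure D2:**
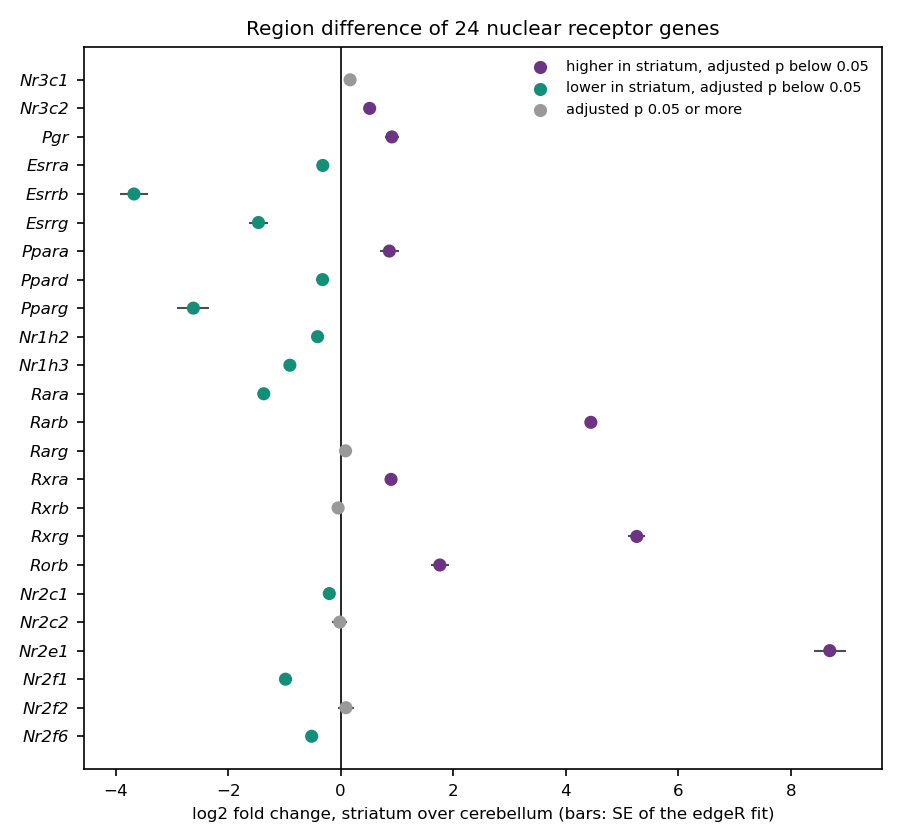
Log2 fold change of striatum over cerebellum for the 24 receptors tested, from edgeR's fit of 44 libraries, with bars for the SE. Colours mark receptors higher in striatum (8), lower in striatum (11) or not past an adjusted p of 0.05 (5). The coloured points include Nr2e1, Esrrb and Pparg, which passed the filter only through the region where they are high, so their colour is not read as a test. Of the 21 receptors at 1 CPM or more in both regions, 7 were higher and 9 lower. The widest differences are Nr2e1, Rxrg and Rarb on the striatal side and Esrrb and Pparg on the cerebellar side; the fitted value of Nr2e1 depends on counts near 0 in cerebellum.

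Of the steroid receptors, 2 were higher in striatum. Nr3c2, the mineralocorticoid receptor, averaged 40.2 ± 8.00 CPM in striatum and 28.3 ± 6.08 CPM in cerebellum (SD, n = 22 each; log2 difference 0.52, SE 0.08, adjusted p = 2.12e-07), and was higher in striatum in 20 of 21 animals. Pgr, the progesterone receptor, averaged 8.42 ± 2.41 CPM in striatum and 4.56 ± 1.36 CPM in cerebellum (log2 difference 0.91, SE 0.12, adjusted p = 1.03e-08). Nr3c1, the glucocorticoid receptor, had 49.1 to 132 CPM in striatum and 40.7 to 126 CPM in cerebellum, ranges that overlap almost fully. Its difference did not pass the test (log2 0.17, SE 0.11, adjusted p = 0.144), whereas without cerebellum of PCB52 male 13 it did (log2 0.23, adjusted p = 0.0395), as it did with the ribosomal protein mean as a covariate (log2 0.12, adjusted p = 0.0326). Without the libraries high in ribosomal protein transcripts it did not pass (log2 0.07, adjusted p = 0.384).

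The 3 oestrogen-related receptors drive genes of mitochondrial oxidative metabolism without binding oestrogen. Esrrb (gene 299210) had 0 to 1.33 CPM in striatum (median 0.434), where 4 of 22 libraries were at 0, and 2.65 to 10.1 CPM in cerebellum (median 6.29). The regions did not overlap, and striatum was lower in all 21 animals (fitted log2 difference -3.67, SE 0.24). Esrrg and Esrra were lower in striatum. Esrrg had 4.74 to 16.7 CPM in striatum and 8.38 to 48.6 CPM in cerebellum (log2 difference -1.46, SE 0.17, adjusted p = 5.42e-10). Its 4 lowest cerebellar values, 8.38 to 9.57 CPM, were those of the 4 libraries high in ribosomal protein transcripts, against 18.8 to 48.6 CPM in the other 18, so without those 4 its regional ranges no longer met. Esrra had the smallest difference of the 3 (111 ± 14.5 CPM in striatum and 138 ± 24.3 CPM in cerebellum, SD, n = 22 each; log2 difference -0.32, SE 0.08, adjusted p = 4.44e-04).

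Among the lipid sensors at 1 CPM or more in both regions, 1 was higher and 3 were lower in striatum. The higher, Ppara, the PPAR of fatty acid oxidation, averaged 3.46 ± 1.17 CPM in striatum and 1.92 ± 0.832 CPM in cerebellum (log2 difference 0.87, SE 0.18, adjusted p = 2.5e-05). Pparg, known best from fat cells, had 0 to 0.593 CPM in striatum and 0.351 to 2.50 CPM in cerebellum, that is at most 4 counts in a striatal and 19 in a cerebellar library (fitted log2 difference -2.62, SE 0.29). Without the libraries high in ribosomal protein transcripts it did not pass the filter, and 23 receptors were tested. Ppard was also lower in striatum (33.8 ± 5.48 CPM against 42.5 ± 5.98 CPM in cerebellum; log2 difference -0.32, SE 0.06, adjusted p = 1.27e-05). The liver X receptors bind oxysterols and raise cholesterol export genes. Nr1h3 (LXRα) averaged 7.67 ± 1.75 CPM in striatum and 14.4 ± 3.14 CPM in cerebellum, lower in striatum in 21 of 21 animals (log2 difference -0.90, SE 0.11, adjusted p = 5.92e-10), and Nr1h2 (LXRβ) 90.4 ± 11.5 CPM and 121 ± 23.1 CPM (log2 difference -0.41, SE 0.08, adjusted p = 1.08e-05).

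Of the orphan receptors, Nr2e1 (gene 684085, also called TLX), which keeps neural stem cells of the mouse dividing, had 16.3 to 29.1 CPM in striatum with a median of 20.2. In cerebellum 17 of 22 libraries were at 0, and the highest, of PCB52 female 24, was at 1.69 CPM. With all cerebellar libraries of males at 0, striatum was at least 280-fold higher in PCB52 males and at least 249-fold higher in sham males, taking 3 counts over the group as the floor. Nr2f1 (COUP-TFI) went the other way, with 26.5 to 56.8 CPM in striatum and 42.0 to 99.6 CPM in cerebellum, lower in striatum in 21 of 21 animals (log2 difference -0.98, SE 0.09, adjusted p = 1.11e-13). Its paralog Nr2f2 (COUP-TFII) did not pass the test (8.64 ± 3.86 CPM in striatum and 7.96 ± 2.56 CPM in cerebellum, SD, n = 22 each; adjusted p = 0.562).

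Nr2f6, a related repressor, averaged 90.9 ± 15.8 CPM in striatum and 129.5 ± 32.5 CPM in cerebellum (log2 difference -0.52, SE 0.10, adjusted p = 1.1e-05). The testicular receptors, repressors of retinoid and other receptor targets, were nearly level. Nr2c1 averaged 16.7 ± 2.12 CPM in striatum and 19.5 ± 4.25 CPM in cerebellum (log2 difference -0.20, SE 0.07, adjusted p = 0.00733), a call that did not hold with the animal as a block (log2 -0.15, adjusted p = 0.0702). Nr2c2 averaged 51.1 ± 12.4 CPM in striatum and 53.0 ± 18.6 CPM in cerebellum (adjusted p = 0.918), and the sign of its difference turned with the scaling.

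The promoter windows of the other 3 receptors with the widest differences are printed for comparison with that of Rarb, with the same hexamers in capitals (a hexamer on the other strand appears as its reverse complement).
Rxrg (chr13:82276237-82276536, plus strand): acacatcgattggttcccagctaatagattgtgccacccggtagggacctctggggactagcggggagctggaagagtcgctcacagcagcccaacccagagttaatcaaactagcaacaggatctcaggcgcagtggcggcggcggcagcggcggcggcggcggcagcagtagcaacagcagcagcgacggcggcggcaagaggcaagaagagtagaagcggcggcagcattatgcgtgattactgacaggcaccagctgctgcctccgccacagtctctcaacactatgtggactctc
Nr2e1 (chr20:47653415-47653714, minus strand): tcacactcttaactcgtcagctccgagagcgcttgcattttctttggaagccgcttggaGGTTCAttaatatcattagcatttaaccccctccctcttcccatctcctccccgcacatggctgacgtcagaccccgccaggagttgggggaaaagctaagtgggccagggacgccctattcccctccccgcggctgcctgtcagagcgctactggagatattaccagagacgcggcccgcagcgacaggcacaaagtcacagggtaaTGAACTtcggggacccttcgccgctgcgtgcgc
Esrrb (chr6:111738412-111738711, plus strand): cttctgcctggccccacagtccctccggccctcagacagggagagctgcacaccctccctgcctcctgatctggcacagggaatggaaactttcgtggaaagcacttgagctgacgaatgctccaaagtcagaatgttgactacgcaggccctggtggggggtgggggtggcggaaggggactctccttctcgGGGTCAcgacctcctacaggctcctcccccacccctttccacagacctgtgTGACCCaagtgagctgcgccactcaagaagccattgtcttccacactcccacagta
Nr2e1 and Esrrb each held 2 hexamers, not spaced as a repeat, and the Rxrg window held none. Windows were found for 25 of the 28 listed receptors (31 windows in all), and 13 receptors had a hexamer in at least 1 of them. Of all 33469 windows, 44.4% had at least 1.

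Genes that make, carry or answer to receptor ligands were listed by role, and each list was described by its calls in the region comparison, in which 38.5% of all genes tested were higher and 42.4% lower in striatum. Of 11 tested genes of retinoid metabolism and transport, 5 were higher and 5 lower in striatum. Crabp1, a cytosolic retinoic acid carrier, had 15.8 to 44.7 CPM in striatum and 0 to 1.38 CPM in cerebellum. Stra6, the membrane receptor for retinol-binding protein, had 8.36 to 29.7 CPM in striatum and 0 to 5.35 CPM in cerebellum. Both averaged under 1 CPM in cerebellum, so no test is given for them either, although they are among the 5 counted as higher. Cyp26b1, which degrades retinoic acid, was named after its values were seen: it averaged 4.50 ± 2.17 CPM in striatum and 43.5 ± 15.4 CPM in cerebellum (log2 difference -3.28, SE 0.18, adjusted p = 3.39e-20).

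Of 10 steroid receptor chaperones, 2 were higher and 7 lower in striatum, and the pair of FK506-binding proteins on the glucocorticoid receptor complex lay in opposite directions. Fkbp5, which lowers the receptor's hormone affinity and is itself induced by glucocorticoids, averaged 122 ± 15.4 CPM in striatum and 37.1 ± 4.99 CPM in cerebellum (log2 difference 1.71, SE 0.06, adjusted p = 4.27e-27). Fkbp4, which takes its place when hormone binds, averaged 156.5 ± 15.7 CPM in striatum and 452 ± 49.8 CPM in cerebellum (log2 difference -1.54, SE 0.06, adjusted p = 1.52e-25). Hsd11b1, which regenerates active glucocorticoid, averaged 40.0 ± 7.48 CPM in striatum and 104 ± 23.2 CPM in cerebellum (log2 difference -1.38, SE 0.10, adjusted p = 1.16e-15), and its list of steroid metabolism had 3 higher and 3 lower of 9 tested.

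On the oxysterol side, 6 of 12 genes were higher and 5 lower in striatum. Cyp46a1, the neuronal cholesterol 24-hydroxylase that makes the brain's main LXR ligand, averaged 531 ± 55.2 CPM in striatum and 69.9 ± 10.7 CPM in cerebellum (log2 difference 2.94, SE 0.06, adjusted p = 1.58e-34), and Srebf1, a lipogenic LXR target, 156 ± 23.3 and 68.3 ± 12.7 CPM (log2 difference 1.21, SE 0.07, adjusted p = 3.88e-19). PPAR targets had 9 higher and 4 lower of 16. Among the higher was Acadl, an acyl-CoA dehydrogenase (log2 difference 0.70, SE 0.06, adjusted p = 2.87e-14).

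Coactivators had 2 higher and 2 lower of 9 tested, and corepressors 3 and 3 of 7. Carm1, an arginine methyltransferase recruited by coactivators, was higher in striatum (log2 difference 0.40, SE 0.03, adjusted p = 3.59e-14) and its relative Prmt1 lower (log2 difference -0.49, SE 0.10, adjusted p = 1.52e-05). Gps2, a subunit of the NCoR corepressor complex (log2 difference -0.85, SE 0.06, adjusted p = 1.79e-16), and Nrip1, a ligand-dependent corepressor (log2 difference -0.84, SE 0.14, adjusted p = 1.13e-06), were lower in striatum. Of 13 other nuclear receptors listed, 3 were tested, with 2 higher and 1 lower, among them the xenobiotic receptor Nr1i3 (log2 difference 0.51, SE 0.05, adjusted p = 3.68e-11).

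Exposure to PCB52 moved no receptor past the threshold in either region or sex. In striatum 22 receptors were tested, and 0 were called in females, in males and over both sexes, as were 0 of 12142 genes (0%) by edgeR; DESeq2 called 23 genes in females, 1 in males and 0 over both sexes, none a listed receptor. By unadjusted p under 0.05 there were 0 receptors in each comparison, beside 13.4% of genes in females, 0.898% in males and 5.8% over both sexes. The log2 differences ran from -0.24 to 0.45 in females and from -0.21 to 0.23 in males. The median absolute difference was 0.13 over the receptors and 0.15 over all genes in females, and 0.07 over both in males.

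In striatum of females the lowest p belonged to Rarb, which had 56.6, 84.6, 93.9, 109.7, 113 and 118 CPM in PCB52 rats, against 87.8, 99.7, 116, 117, 121 and 126 CPM in sham rats. The groups overlap, and the 2 lowest values are those of PCB52 females 24 and 14 (log2 difference -0.24, SE 0.14, adjusted p = 0.424; -0.12 without female 24). Nr2f2 had 4.79 to 20.97 CPM (median 8.17) in PCB52 females and 5.53 to 10.4 CPM (median 7.26) in sham females. Its difference of 0.45 (log2, SE 0.28, adjusted p = 0.44) was 0.17 without female 24, whose 20.97 CPM was the highest of all striatal libraries. Rarg averaged 14.5 ± 2.08 CPM in PCB52 and 12.5 ± 1.502 CPM in sham females (SD, n = 6 each; log2 difference 0.18, SE 0.13, adjusted p = 0.481; 0.115 without PCB52 female 20).

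In males the 3 receptors of lowest p were Nr2c1 (log2 difference -0.15, SE 0.12), Nr1h3 (-0.21, SE 0.23) and Rorb (0.23, SE 0.31), each with an adjusted p of 1. Leaving out 1 library moved them: Rorb was 0.02 without sham male 9 and 0.40 without sham male 1, Nr1h3 -0.13 without PCB52 male 19, and Nr2c1 -0.10 without sham male 1. Over both sexes the lowest were Nr2f2 (log2 difference 0.28, SE 0.21, adjusted p = 0.774), Rxrg (-0.19, SE 0.16, adjusted p = 0.778) and Rarg (0.11, SE 0.10, adjusted p = 0.778). Without female 24 Nr2f2 was at 0.135, and without sham male 9 Rxrg was at -0.11 and Rarg at 0.06. Rxrg had 83.7, 88.8, 173, 190.0, 197 and 232 CPM in PCB52 females and 151 to 239.5 CPM in PCB52 males, against 151 to 215 CPM in sham females and 154, 213, 220.4 and 289 CPM in sham males. Females 24 and 14 again gave the lowest values of the region.

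Both of those libraries were low in projection neuron markers as well. The 12 markers summed to 6759 CPM in PCB52 female 24 and 7479 CPM in PCB52 female 14, against 11262 to 15104 CPM in the other 20 striatal libraries. Female 14 was also among the libraries past the bound for cortical neuron markers, and in female 24 the 7 cortical markers summed to 457 CPM, beside a striatal median of 54.8 CPM. What these markers contribute to the values of Rxrg and Rarb was not tested.

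**Figure D3:**
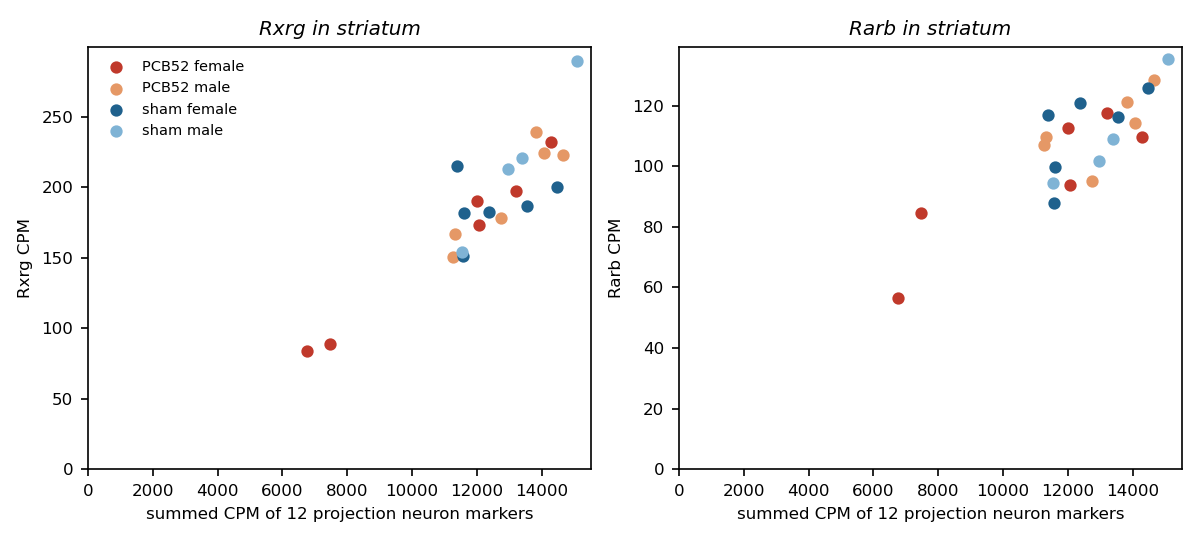
Rxrg (left) and Rarb (right) in the 22 striatal libraries, in CPM, against the summed CPM of 12 striatal projection neuron markers; colours mark exposure and sex. The 2 points at the lower left of each panel are PCB52 females 24 and 14, at 6759 and 7479 CPM of the markers.

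In cerebellum 23 receptors were tested, and again 0 were called in females, in males or over both sexes, as were 0 of 11690 genes (0%). At an unadjusted p under 0.05 there were 0 receptors in females beside 3.16% of genes, 5 in males beside 14.3%, and 4 over both sexes beside 14.8%. The 5 in males were Nr1h2, Nr3c1, Nr1h3, Nr2f6 and Esrrb. The median absolute log2 difference in males was 0.36 over the receptors and 0.26 over all genes.

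In cerebellum of males Nr1h2 had 103, 131.5, 134, 155.5 and 168 CPM in PCB52 rats, against 88.7, 106, 110.0, 113 and 117 CPM in sham rats. All PCB52 values but that of male 13 lay above the sham values (log2 difference 0.44, SE 0.17, adjusted p = 0.313). Nr3c1 had 40.7, 47.0, 72.2, 72.6 and 114.5 CPM in PCB52 males, against 77.6, 90.02, 115, 123 and 124.5 CPM in sham males. Here too PCB52 male 13 was the exception, inside the sham range (log2 difference -0.57, SE 0.27, adjusted p = 0.313). Nr1h3 had 12.8, 13.6, 16.8, 18.99 and 21.3 CPM in PCB52 males, against 10.4, 10.8, 13.3, 13.96 and 15.8 CPM in sham males (log2 difference 0.44, SE 0.21, adjusted p = 0.313). Those groups overlap, with 3 of the 5 PCB52 values above all sham values.

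Over both sexes the receptors of lowest p were Nr1h2 (log2 difference 0.32, SE 0.12), Nr2f6 (0.36, SE 0.15) and Esrrb (-0.40, SE 0.17), each with an adjusted p of 0.326. Without the libraries high in ribosomal protein transcripts they were at 0.07, 0.03 and -0.29, each with an adjusted p of 0.999. In females they were Rara (log2 difference 0.20, SE 0.12), Pgr (0.28, SE 0.22) and Nr2f6 (0.26, SE 0.20), each with an adjusted p of 1. Without PCB52 female 20 Nr2f6 was at 0.10 and Pgr at 0.43. DESeq2 called 9 genes in females, 1 in males and 19 over both sexes, with no listed receptor among them. No alternative fit brought a receptor past the threshold in a PCB52 comparison.

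The 4 cerebellar PCB52 libraries high in ribosomal protein transcripts lay outside the range of the other 18 in 8 of 23 receptors, 5 below (beside 21.6% of genes at 1 CPM or more) and 3 above (beside 13.7%). These shares are near those of all genes. Below the range of all other 18 libraries were Nr3c1 (40.7 to 48.3 CPM, against 71.5 to 126 CPM), Nr3c2 (17.04 to 20.8, against 21.2 to 39.1 CPM), Esrrg, Nr2c1 (11.7 to 14.3, against 16.3 to 26.5 CPM) and Nr2c2 (21.7 to 29.2, against 39.2 to 84.5 CPM). Above it were Esrra (179 to 184 CPM, against 105.5 to 155 CPM), Nr1h2 (154.5 to 168, against 87.1 to 134 CPM) and Nr2f6 (166.5 to 199.7, against 92.3 to 153 CPM). Rxrb spread over 117 to 152 CPM in the 4 and over 117 to 150.5 CPM in the others. In striatum the library of sham female 12, the only striatal library of this kind, lay below all others in 7 of 22 receptors (beside 24.1% of genes), with Nr3c1, Nr2c2 and Esrrg among them, and above all others in 2, Nr1h2 and Nr2f6 (beside 20.7% of genes).

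**Figure D4:**
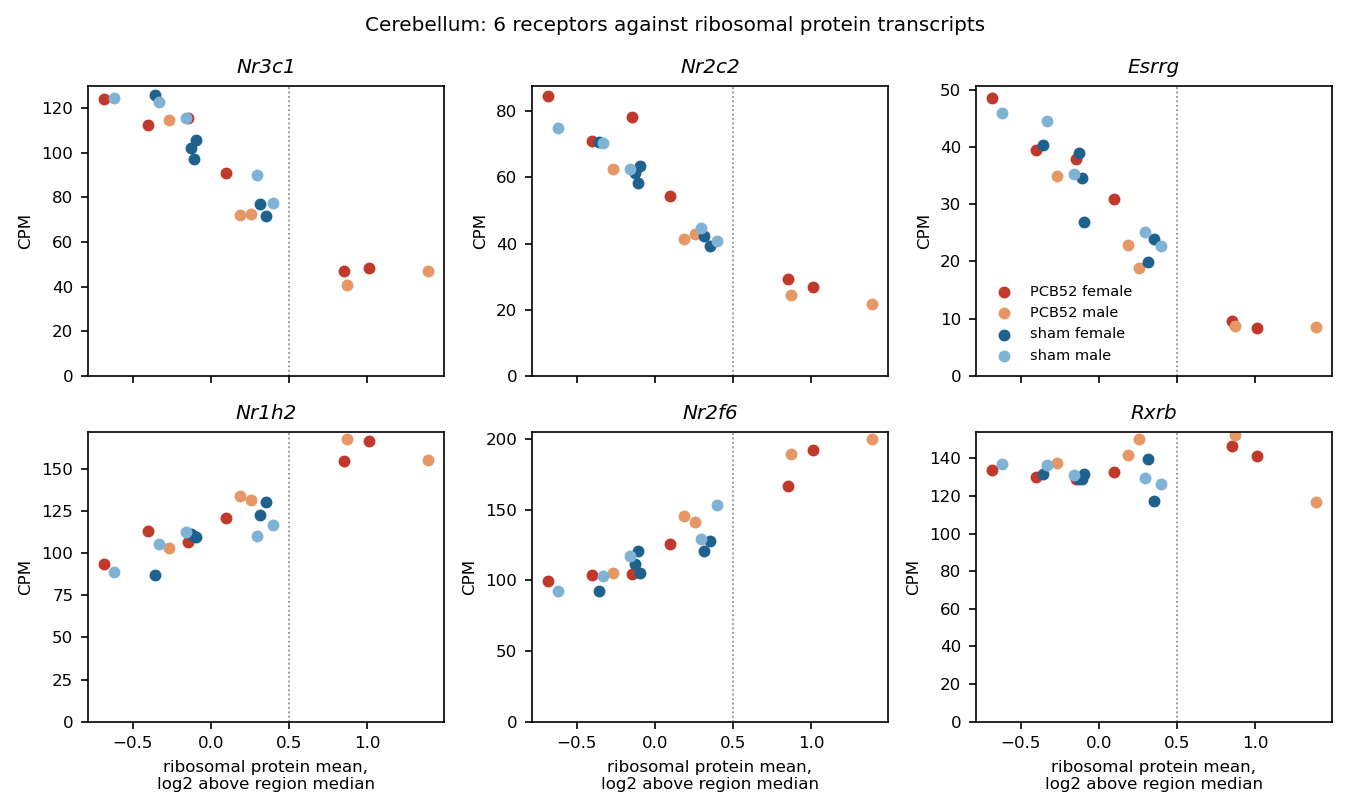
Level of 6 receptors in the 22 cerebellar libraries, in CPM, against the mean log2(CPM + 1) of 74 ribosomal protein genes relative to the region's median; colours mark exposure and sex and the dotted line is at 0.5. Right of it lie 4 libraries, all PCB52, which are lowest in Nr3c1, Nr2c2 and Esrrg and highest in Nr1h2 and Nr2f6, while Rxrb shows no such shift. Apart from Rxrb, the panels show only receptors in which these libraries lie outside the range of the others. Of the 23 receptors detected in cerebellum, 5 lay below that range, 3 above it and 15 within or overlapping it. Over all genes at 1 CPM or more, 21.6% lay below it and 13.7% above it.

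The cerebellar libraries high in ribosomal protein transcripts were those of PCB52 males 15 and 23 and PCB52 females 16 and 20. Leaving them out shrinks the PCB52 groups alone, so fewer animals enter these tests. Without them, a choice made after seeing the data, the share of cerebellar genes with an unadjusted p under 0.05 was 2.39% in males, 3.47% over both sexes and 7.36% in females. The receptors with such a p were then Esrrb in males (log2 difference -0.54, SE 0.25, adjusted p = 0.997), Rara over both sexes (0.22, SE 0.08, adjusted p = 0.999), and Pgr (0.48, SE 0.20) and Rara (0.26, SE 0.11) in females, each of these with an adjusted p of 0.642. With males 15 and 23 included, Esrrb had 3.40, 3.58, 4.599, 5.07 and 5.87 CPM in PCB52 males, against 4.85, 5.50, 6.63, 8.18 and 8.78 CPM in sham males. Its difference was of like size with all libraries (log2 -0.54, SE 0.25, adjusted p = 0.313). In cerebellum of females the difference of Nr2f6 changed sign, to -0.07. RNA integrity is not given in the sources used here, and the part of these transcripts in the PCB52 differences was not tested beyond those values.

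**Figure D5:**
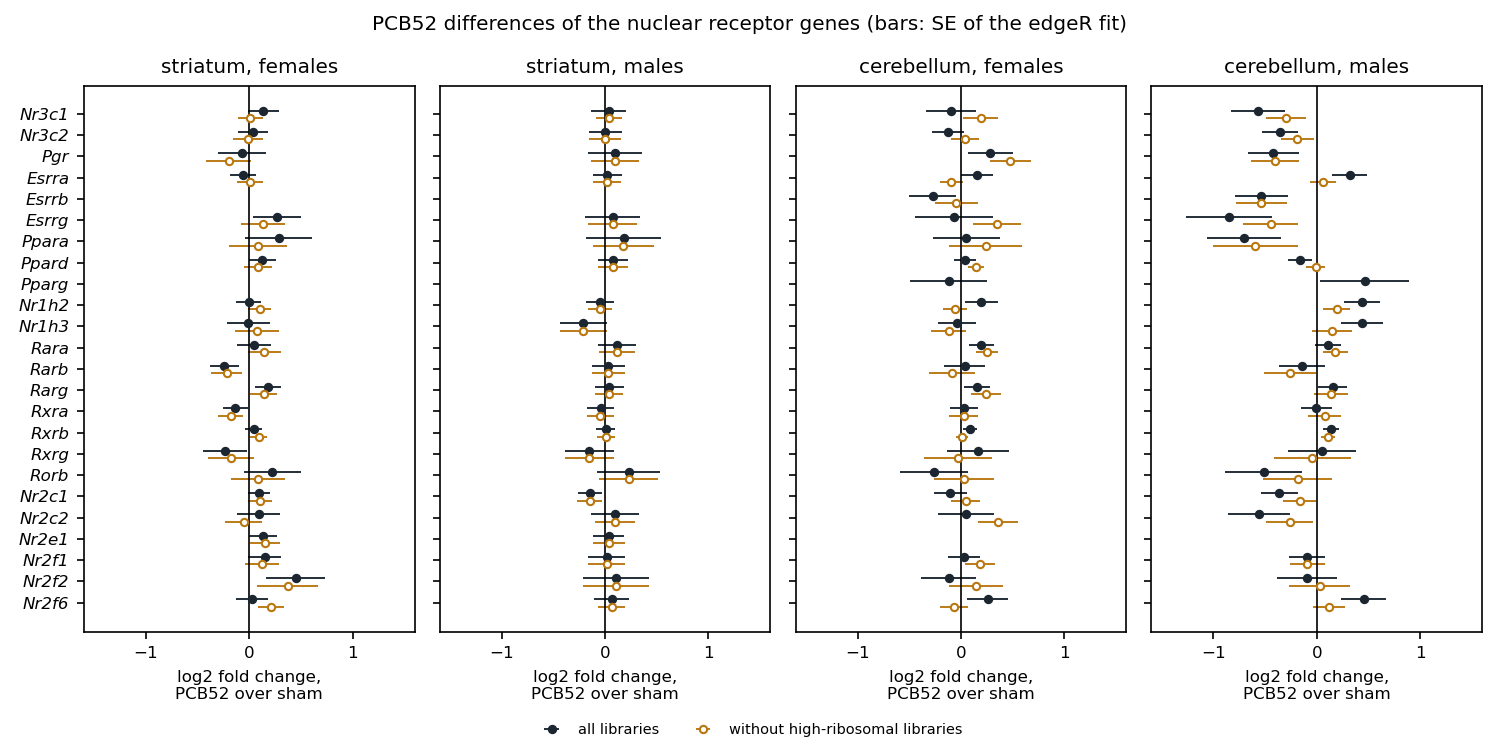
Log2 fold change of PCB52 over sham for each receptor tested, by region and sex, with bars for the SE of edgeR's fit; filled points use all libraries and open points leave out those high in ribosomal protein transcripts. No point passes an adjusted p of 0.05, and the cerebellar points of males lie closer to 0 in the second fit for Nr3c1, Esrrg, Nr1h2, Nr1h3, Nr2c2 and Nr2f6, but not for Esrrb.

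Among the genes of ligand supply and receptor function, 0 were called over both sexes in either region. In striatum the PPAR target Angptl4, a lipase inhibitor, differed by -0.23 (log2, SE 0.10, adjusted p = 0.774). In cerebellum Hsd17b4, a peroxisomal enzyme that also inactivates oestradiol, differed by -0.21 (log2, SE 0.06), the chaperone Hsp90aa1 by -0.18 (SE 0.06) and Pdk4, a PPAR target that holds back glucose oxidation, by -0.56 (SE 0.22), each with an adjusted p of 0.326.

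The PCB52 effect was also compared between sexes and regions. The female minus the male effect gave 0 called receptors and 0 called genes (0%) in both regions. At an unadjusted p under 0.05 it gave 0 receptors beside 3.88% of genes in striatum, and 1 beside 2.17% in cerebellum. In cerebellum Pgr came closest: it averaged 5.33 ± 1.72 CPM in PCB52 and 4.42 ± 0.759 CPM in sham females (SD, n = 6 each), and 3.47 ± 0.723 CPM in PCB52 and 4.87 ± 1.48 CPM in sham males (SD, n = 5 each), a difference of effects of 0.71 (log2, SE 0.33, adjusted p = 0.774). In striatum Nr2c1 came closest (0.25, SE 0.16, adjusted p = 0.914). The striatal minus the cerebellar effect likewise gave 0 receptors and 0 genes (0%), with Nr1h2 (log2 -0.36, SE 0.16, adjusted p = 0.268), Nr3c1 (0.41, SE 0.21, adjusted p = 0.288) and Rorb (0.59, SE 0.33, adjusted p = 0.296) lowest in p. Without the libraries high in ribosomal protein transcripts the share of genes with an unadjusted p under 0.05 in that comparison was 2.59%, against 18.3% with them, and Nr1h2, Nr3c1 and Rorb were at -0.05, 0.07 and 0.23, each with an adjusted p of 1.

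No receptor passed the threshold between females and males, beside 6 genes called in striatum (0.0494%) and 3 in cerebellum (0.0257%). At an unadjusted p under 0.05 there was 1 receptor beside 3.26% of genes in striatum and 0 beside 1.56% in cerebellum. Rarg had the lowest p in striatum, at 14.5 ± 2.08 CPM in PCB52 and 12.5 ± 1.502 CPM in sham females (SD, n = 6 each), against 15.97 ± 2.52 CPM in PCB52 males (n = 6) and 15.6 ± 3.06 CPM in sham males (n = 4; log2 difference -0.24, SE 0.10, adjusted p = 1). In cerebellum it was Esrrb, at 6.31 ± 2.40 CPM in PCB52 and 7.69 ± 1.51 CPM in sham females (SD, n = 6 each), against 4.50 ± 1.04 CPM in PCB52 and 6.79 ± 1.69 CPM in sham males (n = 5 each; log2 difference 0.31, SE 0.17, adjusted p = 0.998). The steroid receptors Pgr, Nr3c1 and Nr3c2 were among those not called between the sexes in either region.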

How the data were processed

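RNA was sequenced after poly(A) capture or ribosomal RNA removal, per the labels' protocols, with no word on which. The submitters' processing notes name FastQC, HISAT2 and the rat build rn6. Which counter, annotation and strand setting were used is not given in the sources here, and overlapping or antisense genes therefore cannot be told apart. The authors deposited whole-number counts per gene, 1 table per region. Of 15319 identifiers, 15230 (99.4%) matched a symbol in a GRCr8 table, used for names only. Of 47 samples, 44 had counts; cerebellum of sham male 5 and striatum of sham males 5 and 7 were not analysed here. Within groups every pair of libraries differed beyond sampling noise (chi-square per degree of freedom at least 3.5). The animals are the replicates, and PCB52 and sham groups were compared over animals.

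edgeR 4.0.16 (R 4.3.3; TMM, default filter, robust quasi-likelihood) was fitted with 4 group means per region, and with 8 for both regions. Tests were two-sided, with Benjamini-Hochberg adjustment over all genes tested and a threshold of 0.05; fold changes are on the log2 scale of TMM-scaled counts, while CPM use library totals. Animal numbers in the labels pair the regions, so the animal as a block was an alternative. Other alternatives were DESeq2 1.42.0, limma 3.58.1 with quality weights, RLE factors, no filter, only the libraries compared, leaving out each library, and leaving out libraries that stood apart. On simulated counts the test recovered 97 of 100 genes changed by 1 log2 unit for striatal females and 70 of 100 for cerebellar males. The changed genes were drawn from the better expressed ones, and counts were simulated independently between genes. Receptors at low levels, differences under 1 log2 unit and shifts shared by many genes of a library are therefore not covered. The members and lists were chosen with earlier results of these data known. Every detected member is described for the regions; for other comparisons the 3 of lowest p are named, and for each list up to 2.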

Additional observations from a re-analysis of the deposited data

Results flagged for a closer look

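A sample lay far from the rest of its group, by Dixon's criterion, in 7 of 180 groups of values examined (3.89%); chance alone flags about 1 in 20. The 7 fell in 6 libraries, all but 1 of them striatal. Nr3c1 was at 76.6 CPM in striatum of PCB52 female 18, against 109.1 to 112 CPM in the other 5 PCB52 females, and Rxra in the same library was at 13.6 CPM, against 20.2 to 22.1 CPM. In striatum of PCB52 female 24 Nr2f1 stood at 56.8 CPM, against 28.3 to 38.9 CPM in its group. Ppara was at 0.632 CPM in striatum of sham female 12, the library high in ribosomal protein and olfactory bulb transcripts, against 2.998 to 4.19 CPM. Nr2e1 was at 27.6 CPM in striatum of sham female 10, against 16.3 to 20.5 CPM. Rxrb was at 146 CPM in striatum of PCB52 male 21, against 126 to 133.5 CPM. Rorb was at 5.35 CPM in cerebellum of PCB52 male 13, the group's library lowest in ribosomal protein transcripts, against 1.17 to 2.11 CPM in the other 4 PCB52 males.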

How the results depend on the processing

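The receptors past the threshold between regions numbered 18 to 22 under every alternative, with 19 in the main fit, and 0 in every PCB52, interaction and sex comparison under every alternative. The 19 include Nr2e1, Esrrb and Pparg, whose values are given above without a test. Detection moved little: 26 receptors reached 0.5 CPM, 23 reached 2 CPM and 24 reached 1 CPM with TMM-adjusted sizes. Between regions Nr2c2, far from the threshold at -0.02, changed sign with DESeq2 (0.020), RLE factors (0.020), without libraries of other tissues (0.011) and with the animal block (0.021), and ran from -0.048 to 0.040 when a library was left out. Nr2f2 became -0.015 with limma. Without high-ribosomal libraries Nr2f6 in cerebellum of females became -0.066. The causes were not tested. With the animal as a block (pairing by animal), 18 receptors and 9878 genes were called between regions, Nr2c1 being lost (-0.15), and no other call changed. DESeq2 called 23 genes in striatal females, 1 in striatal males, 9 in cerebellar females, 1 in cerebellar males, 19 over both sexes in cerebellum, 4 for the female minus male effect in cerebellum and 3 for the striatal minus cerebellar effect, where edgeR called 0, and none was a listed receptor. Genes differing between the sexes in cerebellum numbered 3, but 6 with DESeq2 and with limma, 5 without libraries holding transcripts of both sexes and 0 without high-ribosomal libraries. They ranged from 0 to 4 when a library was left out, with 0 without PCB52 male 15, 19 or 21 and 1 without sham female 10. Leaving out libraries kept the regional count of receptors at 19 to 20 and of genes at 9939 to 10119. Depth limits Esr1, Esr2, Vdr and striatal Pparg and Esrrb.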

Other observations

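Both libraries of PCB52 female 24 held extreme receptor values. In striatum it was the highest of 22 libraries in Nr2f1 (56.8 CPM) and Nr2f2 (20.97 CPM) and the lowest in Rxrg (83.7 CPM) and Rarb (56.6 CPM). In cerebellum it was the highest in Nr2f1 (99.6 CPM), Nr2f2 (13.5 CPM), Rxrg (8.74 CPM), Rarb (6.74 CPM) and Nr2e1 (1.69 CPM). Its summed meningeal markers in cerebellum were 560.5 CPM, the highest of the region, whose median was 166 CPM, and its oligodendrocyte markers in striatum summed to 30053 CPM beside a median of 17490 CPM. Their part in the receptor values was not tested.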
